A study of Cunninghamia lanceolata with 3 samples.

Results

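The unigenes described here carry the names of enzymes of the monolignol pathway, the route by which plants turn the amino acid phenylalanine into the alcohols that are joined into lignin. They were chosen by the text of their best hit in the NCBI protein collection, with a name pattern for each enzyme and without the laccases, and 64 of the 53590 unigenes (assembled transcript sequences) with a read in any library matched. Of the 64, 58 are named for a step of the pathway in 10 classes of enzyme. The other 6 matched through the letters "coumar" in phenylcoumaran benzylic ether reductase (PCBER), an enzyme family of lignan metabolism that uses products of the pathway. They have a paragraph of their own below, but the counts over the 64 unigenes include them. The name pattern uses no expression value, but it was set with earlier results of these data known. A best hit is the closest named protein found, mostly in another species, and what a unigene's product does was not tested.

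Messenger RNA was measured in cambium, the dividing layer between wood and bark, of the conifer Cunninghamia lanceolata (Chinese fir), with 1 library from each of 3 stages of the yearly cycle, namely dormant, reactivating and active. The labels give the trees an age of about 16 years, a height of 15 m, a diameter of 12 cm and natural growing conditions, with no treatment and no genotype, and the tissue came from tangential cryosections. How many trees stand behind a library is not given in the sources used here. Each library held 5.84 to 5.85 Mreads (megareads) that mapped uniquely. With 1 library a stage no difference has a replicate check and none was tested, so every ratio below compares these libraries, and the interval in parentheses after it is a 95% interval that covers the counting of reads alone.

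Lignin stiffens and waterproofs the walls of wood cells. Phenylalanine ammonia-lyase (PAL) starts the pathway by removing ammonia from phenylalanine, cinnamate 4-hydroxylase (C4H) and 4-coumarate:CoA ligase (4CL) make the activated acid, and hydroxycinnamoyl transferase (HCT), coumarate 3-hydroxylase (C3H) and caffeoyl-CoA O-methyltransferase (CCoAOMT) add and methylate the ring groups. Cinnamoyl-CoA reductase (CCR) and cinnamyl alcohol dehydrogenase (CAD) then reduce the acid to the alcohol. Conifer lignin is built mostly from coniferyl alcohol, and the early enzymes also feed flavonoids and lignans.

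Levels are given as RPKM, read counts scaled to unigene length and to the total of the library. A unigene was set against another library when both held at least 20 of its reads together, and a call of higher or lower needs at least a 2-fold difference. The unigenes were short, with a median length of 283.5 bases and a longest of 1194 bases, and 9 of 64 reached 500 bases. Several can be pieces of 1 transcript, so a sum over a step grows with the number of pieces and is compared between stages, not between steps. In bulk tissue, fewer cells of a type and less RNA per cell cannot be told apart.

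Over all 64 unigenes, more were called lower than higher in the reactivating against the dormant library. More were called higher than lower in the active against the reactivating library. The summed level was highest in the active library for most steps after the first. Of the 64 unigenes, 49 had enough reads to set the reactivating against the dormant library, and 15 of these were lower (30.6%, against 13.8% of all measured unigenes) and 1 higher (2.04%, against 16.9% of all). Between the active and the reactivating library 46 were measured, of which 13 were higher (28.3%, against 6.76% of all) and 4 lower (8.70%, against 5.14% of all). Between the active and the dormant library 50 were measured, of which 8 were higher (16.0%, against 18.1% of all) and 11 lower (22.0%, against 13.8% of all). The median log2 ratio of the measured members was -0.06 for reactivating against dormant, 0.40 for active against reactivating and 0.23 for active against dormant, beside 0.07, -0.06 and 0.01 over all measured unigenes. Of the 15 unigenes lower in the reactivating library, 8 are PAL and 2 C4H. No measured HCT, C3H, CCoAOMT, CCR or CAD unigene was called lower there. Among the 58 unigenes named for a step, 13 of 44 measured were lower (29.5%) and 1 higher (2.27%) in reactivating against dormant. In active against reactivating 11 of 42 were higher (26.2%) and 4 lower (9.52%). In active against dormant 7 of 45 were higher (15.6%) and 10 lower (22.2%).

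Over the 3 stages, 48 unigenes had at least 50 reads in all. Of these, 10 were at least 2-fold lower in the reactivating library than in both others (20.8%, against 2.70% of all unigenes with as many reads). Among the 10, 9 are named for a step. For 2 of the 10, both PAL, the reactivating and active libraries held too few reads to be set against each other by the rule above. They held 1 and 10 reads of one and 5 and 13 of the other. These 2 were counted because a low required only the 50 reads over the 3 stages, as it did for all unigenes. In the active library 4 were at least 2-fold below both others (8.33%, against 2.06% of all), and in the dormant library 1 was (2.08%, against 12.9% of all). In the other direction, 5 were at least 2-fold above both others in the dormant library (10.4%, against 8.10% of all) and 4 in the active library (8.33%, against 3.16% of all). In the reactivating library 0 were (against 1.37% of all). Of these unigenes 2 count under both a peak in the dormant and a low in the reactivating library. The level was highest in the active library for 25 of the 48, in the dormant library for 14 and in the reactivating library for 9. The 25 include all 4 PCBER unigenes among the 48. The level was lowest in the dormant library for 22, in the reactivating library for 18 and in the active library for 8. These counts by highest and lowest library have no share over all unigenes beside them, so they describe the members alone.

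**Figure D1:**
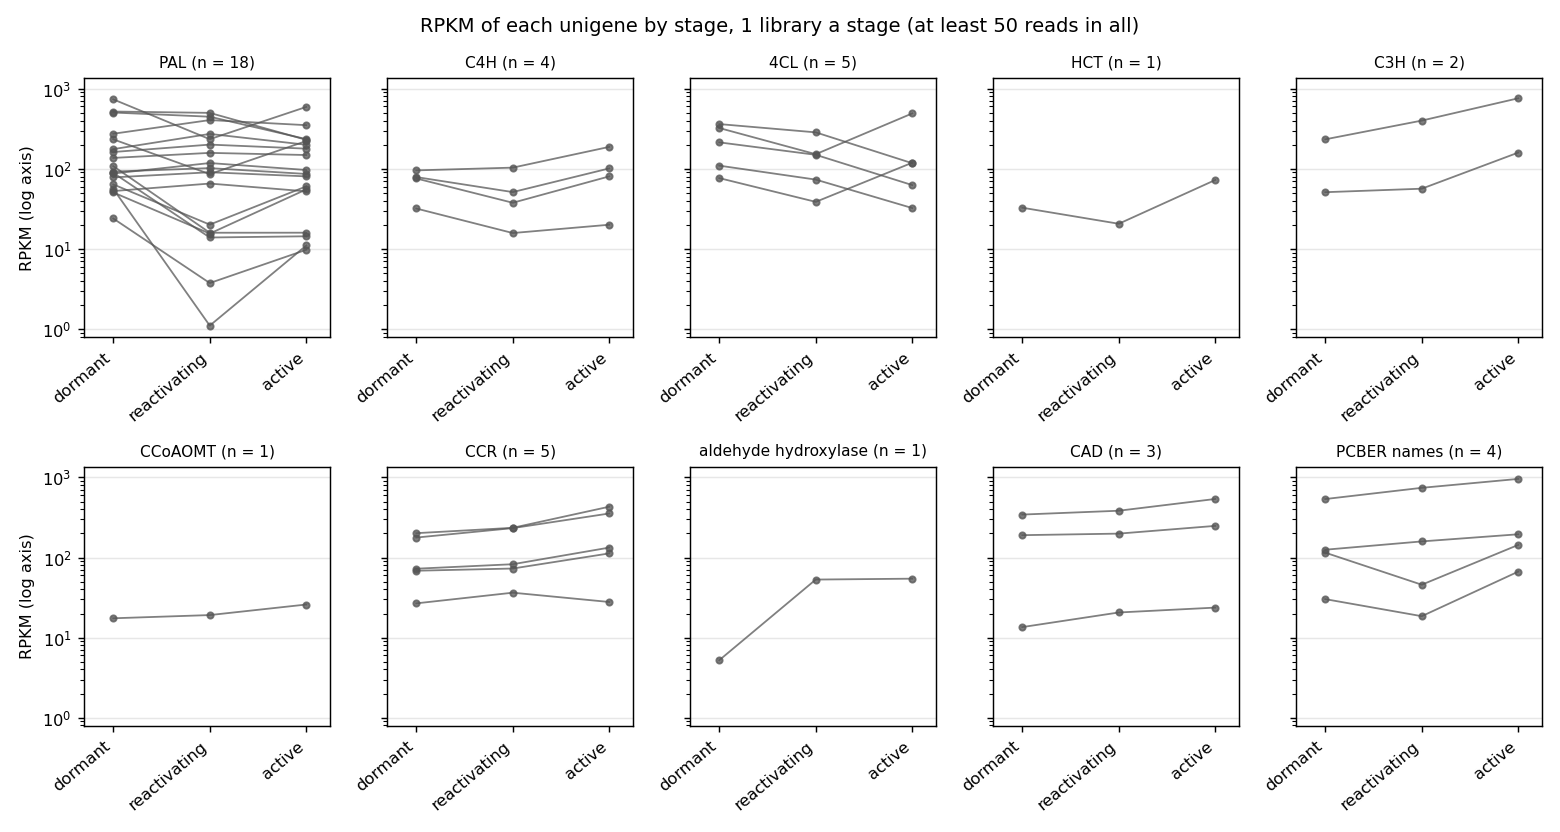
RPKM (log axis) of 44 unigenes with at least 50 reads in all, 1 line a unigene and 1 panel an enzyme class, in the dormant, reactivating and active libraries. The 18 PAL lines cross each other, while the CCR and CAD lines run nearly side by side, with 4 of 5 CCR and 3 of 3 CAD unigenes highest in the active library.

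PAL had the most unigenes, 21, and they summed to 3451, 2766 and 2650 RPKM in the dormant, reactivating and active libraries. The sum was 1.25-fold lower (1.19 to 1.30) in the reactivating than in the dormant library and 1.04-fold lower (0.995 to 1.09) in the active than in the reactivating library. Between the active and the dormant library it was 1.30-fold lower (1.24 to 1.36). The sum combines 4 courses of the 18 PAL unigenes with at least 50 reads. The longest PAL unigene had 374 bases, well short of a whole coding sequence of this enzyme, so unigenes that run together may be parts of the same transcript, which was not tested because no unigene sequences were used here.

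A first set of 4 PAL unigenes was low in the reactivating library alone. Unigene32836, the most abundant PAL unigene of the dormant and of the active library, had 737, 234 and 593 RPKM in the dormant, reactivating and active libraries, from 931, 296 and 748 reads. It was 3.15-fold lower (2.76 to 3.60) in the reactivating than in the dormant library, and the active library was 1.24-fold below the dormant one (1.13 to 1.37). Unigene34365 had 233.5, 85.8 and 222 RPKM, 2.72-fold lower (2.19 to 3.40) in the reactivating than in the dormant library. Both smaller members dipped as well, by 3.27-fold (2.21 to 4.95) in Unigene47129 and 3.18-fold (2.06 to 5.05) in Unigene35918. In all 4 the reactivating library held between 12.8% and 15.8% of the RPKM summed over the 3 libraries.

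A second set of 4 PAL unigenes was high in the dormant library and low in both others. Unigene8772 had 186 reads in dormant, 29 in reactivating and 30 in active cambium, 6.42-fold lower (4.32 to 9.84) in the reactivating than in the dormant library. The active library was likewise 6.19-fold below the dormant one (4.20 to 9.44). Unigene5735 had 129, 19 and 19 reads, 6.79-fold lower (4.18 to 11.6) in the reactivating than in the dormant library. Unigene21000 had 51, 1 and 10 reads, a ratio of 51.0 between dormant and reactivating (8.75 to 2054). All 4 were small, and together they made 277 of the 3451 RPKM of the dormant library.

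The third set, 2 abundant PAL unigenes, kept its level into reactivation and was lower in the active library. Unigene44660, the PAL unigene with the most reads, had 519, 499 and 230 RPKM in the dormant, reactivating and active libraries. It was 2.17-fold lower (1.94 to 2.43) in the active than in the reactivating library. Unigene21960 had 504, 447 and 235 RPKM, 1.91-fold lower (1.61 to 2.26) in the active than in the reactivating library and so just inside the 2-fold limit. It was 2.15-fold lower (1.83 to 2.54) in the active than in the dormant library.

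The remaining 8 PAL unigenes stayed within 2-fold in all comparisons, with the reactivating library the highest in each of them, though not every counting interval excluded equal levels. The reactivating library held 35.6% to 42.1% of their RPKM, the dormant library 26.6% to 32.9% and the active library 30.7% to 34.0%. Unigene39187 had 274, 406 and 351 RPKM in the dormant, reactivating and active libraries, 1.48-fold higher (1.31 to 1.68) in the reactivating than in the dormant library. Unigene23696 was 1.55-fold higher (1.27 to 1.89) in that comparison and 1.37-fold lower (1.13 to 1.65) in the active than in the reactivating library. Summed over the 8, the level was 1060, 1413 and 1193 RPKM, against 1085, 356 and 931 RPKM over the 4 unigenes of the first set. The last 3 PAL unigenes had 13 to 20 reads in all and were not compared.

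**Figure D2:**
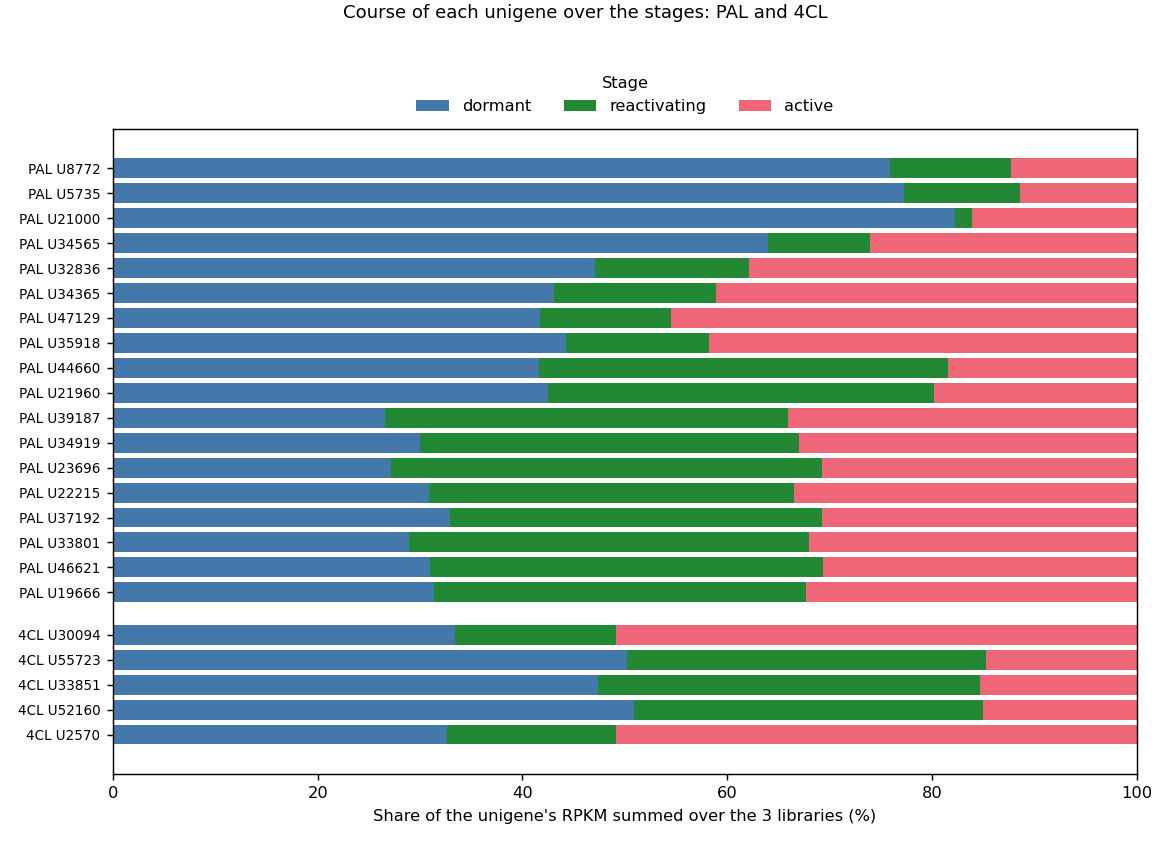
Share (%) of each unigene's RPKM, summed over the 3 libraries, that came from the dormant, reactivating and active library, for the PAL and 4CL unigenes with at least 50 reads in all. The PAL bars fall into 4 shapes and the 4CL bars into 2, one with 14.7% to 15.4% of the RPKM in the active library and the other with 15.7% to 16.5% in the reactivating library.

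C4H, the membrane-bound P450 that hydroxylates cinnamate, was lowest in the reactivating library and highest in the active one, at 282, 209 and 391 RPKM summed over 5 unigenes in the dormant, reactivating and active libraries. The sum was 1.35-fold lower (1.21 to 1.51) in the reactivating than in the dormant library and 1.87-fold higher (1.68 to 2.08) in the active than in the reactivating library. Unigene13185, with 1038 bases the longest, had 479, 311 and 614 reads and was 1.98-fold higher (1.72 to 2.27) in the active than in the reactivating library. Its reads covered 59.2%, 48.8% and 65.6% of its length, so they were gathered on parts of it. Unigene45800, the highest by RPKM, had 95.6, 103 and 188 RPKM and did not dip, while Unigene16779 was 2.01-fold lower (1.54 to 2.66) in the reactivating than in the dormant library and 2.14-fold higher (1.63 to 2.81) in the active than in the reactivating library. Unigene5616 was 2.02-fold lower (1.38 to 3.02) in the reactivating than in the dormant library and 1.27-fold higher (0.827 to 1.96) in the active than in the reactivating library.

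4CL, which joins coumarate to coenzyme A, split into 2 opposite courses between the reactivating and the active library. Unigene55723, Unigene33851 and Unigene52160 were highest in the dormant and lowest in the active library. Unigene55723 had 214, 150 and 62.6 RPKM in the dormant, reactivating and active libraries, 2.39-fold lower (2.08 to 2.76) in the active than in the reactivating library. Unigene33851 had 362, 285 and 117 RPKM, and Unigene52160 had 110, 73.4 and 32.4 RPKM. Their ratios of active to dormant were alike, at 3.42-fold lower (2.99 to 3.92), 3.08-fold lower (2.56 to 3.72) and 3.39-fold lower (2.70 to 4.28).

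The other 4CL course was a dip. Unigene30094 had 323, 152 and 492 RPKM in the dormant, reactivating and active libraries, 2.12-fold lower (1.77 to 2.55) in the reactivating than in the dormant library and 3.23-fold higher (2.73 to 3.84) in the active than in the reactivating library. Unigene2570 had 76.6, 38.7 and 119 RPKM and was 3.08-fold higher (2.23 to 4.33) in the active than in the reactivating library. The best hits of both are 4CL of the cypress family, Thuja plicata and Thujopsis dolabrata, while those of the first course are 4CL of Pinus massoniana, Glycine max and Betula luminifera. The 4CL unigene with the highest RPKM was Unigene33851 in the dormant and reactivating libraries and Unigene30094 in the active library, where it made 59.6% of the step's RPKM, against 21.7% in the reactivating library. Because the 2 courses cancel, the 4CL sum was 1086, 700 and 825 RPKM, with the active library 1.18-fold above the reactivating one (1.08 to 1.28). By summed reads, which give more weight to the longer unigenes, the active library was below the reactivating one, with 1268 against 1502 reads. Without Unigene30094 the active library was lower than the reactivating one, at a ratio of 0.607.

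HCT, which moves the coumaroyl group to shikimate and back, rested on 1 unigene, since the other 3 had 1 to 22 reads in all. Unigene50956 had 32.7, 20.6 and 72.6 RPKM in the dormant, reactivating and active libraries, from 92, 58 and 204 reads. It was 3.52-fold higher (2.62 to 4.80) in the active than in the reactivating library and 2.22-fold higher (1.73 to 2.87) in the active than in the dormant library. Between the reactivating and the dormant library it was 1.59-fold lower (1.13 to 2.24).

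C3H, which adds a further hydroxyl group to the ring, climbed in both of its unigenes. Unigene21933 had 233, 400 and 760 RPKM in the dormant, reactivating and active libraries, and in the active library it was the highest of the 58 unigenes named for a step. It was 1.71-fold higher (1.45 to 2.04) in the reactivating than in the dormant library and 1.90-fold higher (1.67 to 2.16) in the active than in the reactivating library. Unigene33449 had 51.1, 56.5 and 160 RPKM, flat from the dormant to the reactivating library at 1.11-fold (0.782 to 1.57) and 2.83-fold higher (2.15 to 3.74) in the active than in the reactivating library. Both were over 3-fold higher in the active than in the dormant library, at 3.26-fold (2.79 to 3.81) and 3.12-fold (2.36 to 4.19).

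CCoAOMT, which methylates the ring on the way to coniferyl alcohol, was named for only 1 unigene. Unigene43010 had 31 reads in dormant, 34 in reactivating and 46 in active cambium, with 34.5%, 41.8% and 35.5% of its 304 bases covered, and its ratios had intervals that include 1. A best hit of "unknown" can hide an enzyme, so this level does not stand for the step.

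**Figure D3:**
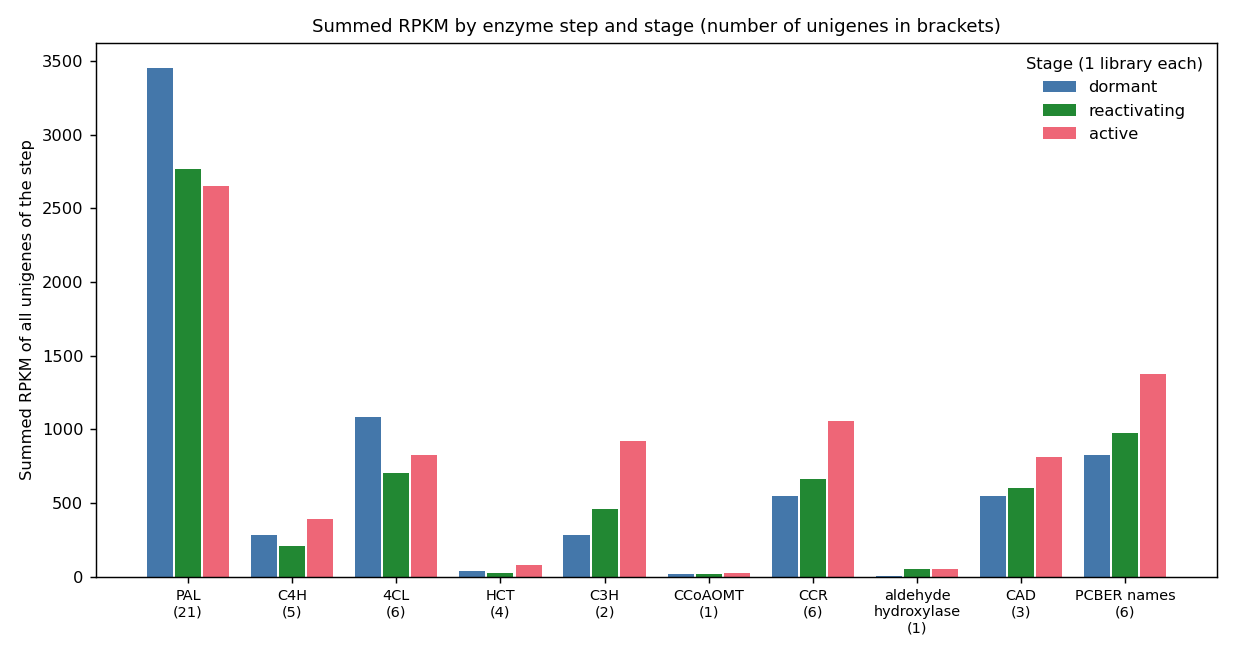
Summed RPKM of all unigenes of each enzyme class in the dormant, reactivating and active libraries (bars, 1 library each), with the number of unigenes in brackets under the name; the aldehyde hydroxylase is the P450 Unigene1241. PAL is the only class of more than 1 unigene that was lowest in the active library, at 2650 RPKM, and 4CL the only other that was highest in the dormant library, at 1086 RPKM.

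CCR, which reduces the CoA ester to the aldehyde, was higher by small steps through the stages. Its 6 unigenes summed to 548, 659 and 1059 RPKM in the dormant, reactivating and active libraries, 1.20-fold higher (1.10 to 1.32) in the reactivating than in the dormant library and 1.61-fold higher (1.48 to 1.74) in the active than in the reactivating library. None of the 5 measured CCR unigenes passed 2-fold in either of these comparisons. Unigene32440 had 201, 235 and 431 RPKM and was 2.14-fold higher (1.84 to 2.50) in the active than in the dormant library. Unigene41850 had 177, 233 and 355 RPKM, and its ratio of active to dormant of 2.0 (1.74 to 2.30) lay just under the limit before rounding. Unigene49323 and Unigene27840 had the same order of libraries, while Unigene2680, with 1137 bases, was highest in the reactivating library at 26.8, 36.4 and 27.8 RPKM. Unigene15605, named after its values were seen, had 10 reads in the dormant library and 0 in both others.

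CAD, which makes the alcohol from the aldehyde, climbed little. Its 3 unigenes summed to 547, 603 and 810 RPKM in the dormant, reactivating and active libraries, 1.10-fold higher (0.997 to 1.22) in the reactivating than in the dormant library and 1.34-fold higher (1.23 to 1.47) in the active than in the reactivating library. Unigene29873 had 344, 384 and 538 RPKM and Unigene3263 had 190, 199 and 248 RPKM, both with best hits to the same spruce entry for a probable CAD. Unigene52727 was much lower, at 13.5, 20.6 and 23.7 RPKM, and 1.75-fold higher (1.19 to 2.60) in the active than in the dormant library. All 3 kept the order dormant, reactivating, active from low to high.

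Another class carries the name of the branch that leads to syringyl units in flowering plants. A cytochrome P450 named as a probable hydroxylase of coniferaldehyde (Unigene1241, best hit in Populus trichocarpa) was the only unigene of the 64 called higher in the reactivating than in the dormant library. It had 5.22, 53.1 and 54.4 RPKM in the dormant, reactivating and active libraries, from 12, 122 and 125 reads. That is 10.2-fold higher (5.61 to 20.2) in the reactivating than in the dormant library, with the active library at the level of the reactivating one (ratio 1.03, 0.793 to 1.33).

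The 6 unigenes named phenylcoumaran benzylic ether reductase summed to 823, 973 and 1373 RPKM in the dormant, reactivating and active libraries. Unigene29661, with 537, 741 and 958 RPKM, was the most abundant of the 64 unigenes in the reactivating and the active library, and Unigene52360 had the same order at 125, 159 and 195 RPKM. The hits of Unigene39744 and Unigene12619 name both this enzyme and pinoresinol-lariciresinol reductase. Unigene39744 dipped, with 115, 45.8 and 144 RPKM, and was 3.14-fold higher (2.40 to 4.16) in the active than in the reactivating library. Unigene12619 was 3.60-fold higher (2.39 to 5.60) in that comparison. Unigene44066, named after its values were seen and with 46 reads in all, was instead highest in the dormant library, at 15.5, 5.89 and 3.22 RPKM. Against the dormant library it was 2.64-fold lower (1.28 to 5.85) in the reactivating and 4.83-fold lower (1.97 to 14.2) in the active one. Of 5 measured unigenes of the family, 1 was higher and 1 lower in active against dormant. In reactivating against dormant 2 of 5 were lower and 0 higher.

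**Figure D4:**
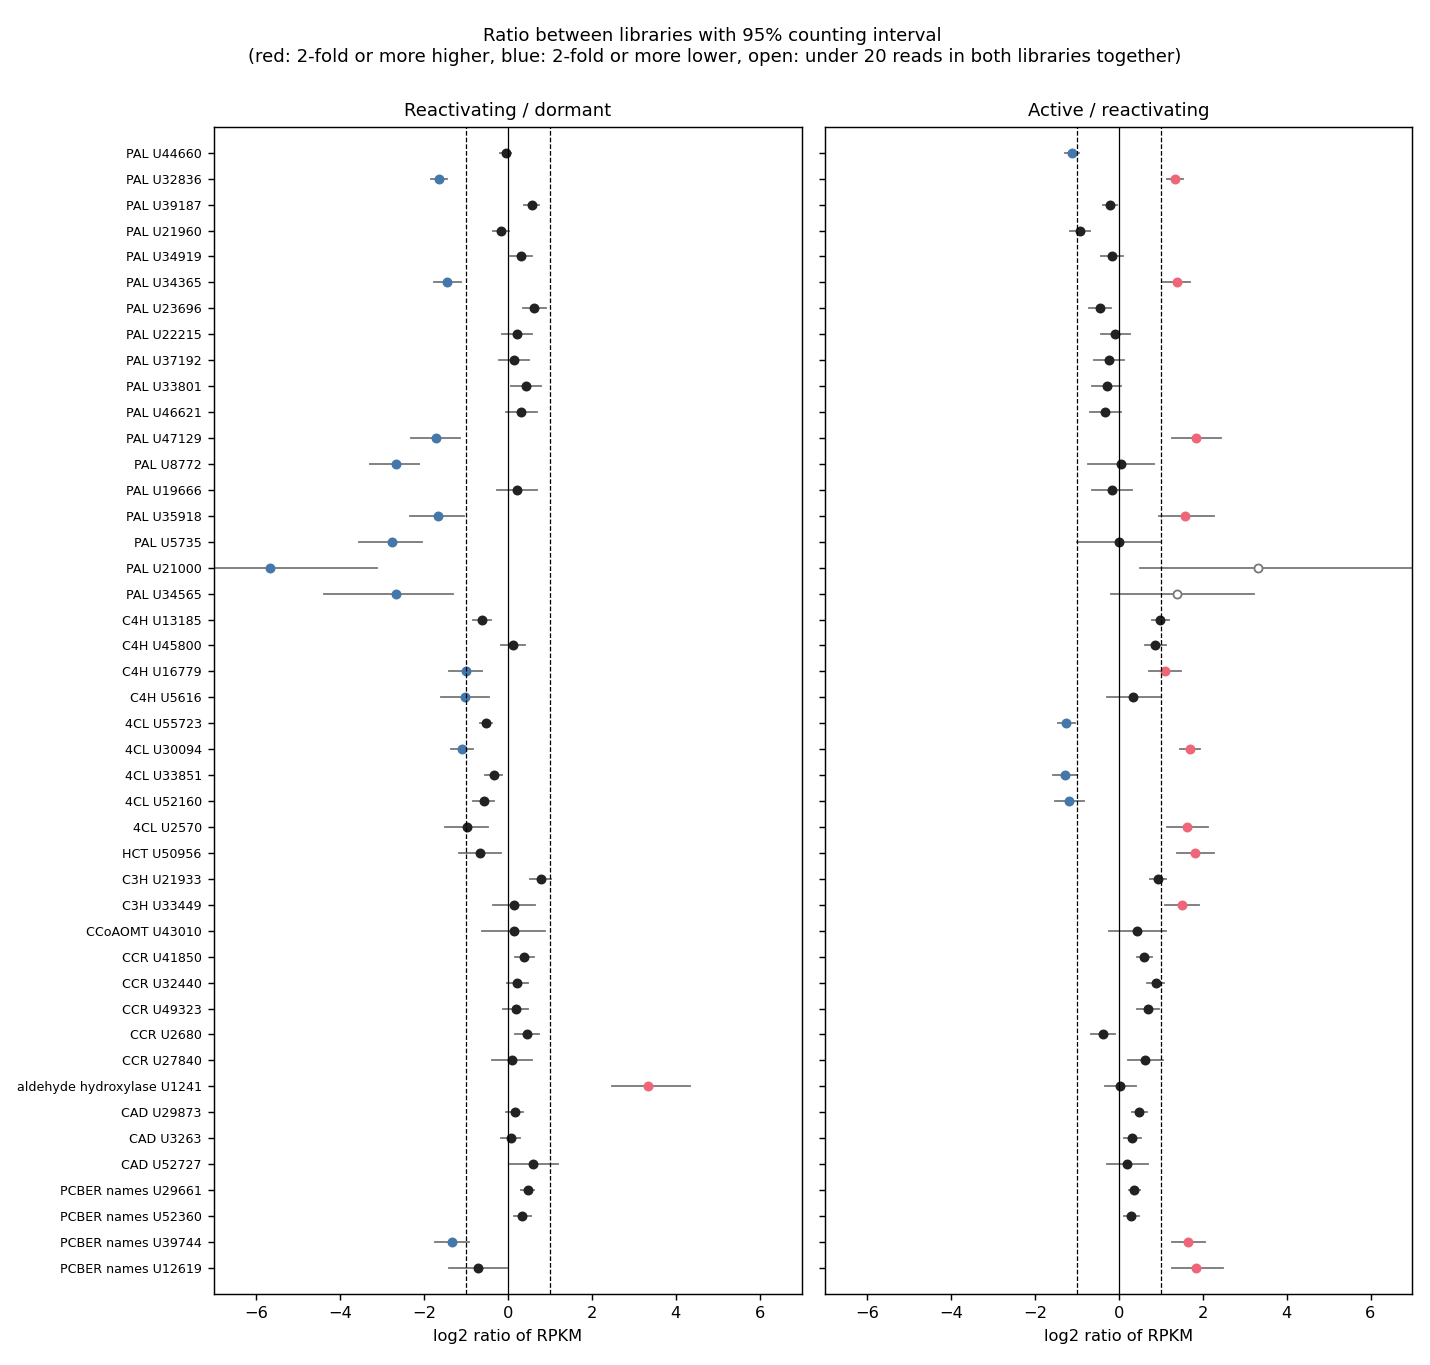
Log2 ratio of RPKM with its 95% counting interval for 44 unigenes with at least 50 reads in all, reactivating over dormant on the left and active over reactivating on the right, grouped by enzyme class. Dashed lines mark 2-fold. On the left the calls are lower except for Unigene1241 at 10.2-fold higher, and on the right 11 are higher and 4 lower; the interval of PAL Unigene21000 runs beyond the axis. Both panels share the reactivating library.

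Genes around the pathway were taken from lists of names, and their counts are read against all measured unigenes, of which 16.9% were higher and 13.8% lower in reactivating against dormant, 6.76% and 5.14% in active against reactivating, and 18.1% and 13.8% in active against dormant. The 9 unigenes for the supply of aromatic amino acids, phenylalanine among them, summed to 309, 245 and 253 RPKM in the dormant, reactivating and active libraries. The active library was at 1.03 times the reactivating one (0.935 to 1.14). Of 7 measured, 3 were lower (42.9%) and 0 higher in the reactivating than in the dormant library. Between the active and the reactivating library 3 were higher (42.9%) and 0 lower, the median over the 7 being 0.07 on the log2 scale, and 0 passed 2-fold between the active and the dormant library. Among those lower in the reactivating library was arogenate dehydratase 2 (Unigene49272), of the enzyme that makes phenylalanine, with 91 reads in dormant, 23 in reactivating and 79 in active cambium. It was 3.96-fold lower (2.48 to 6.55) in the reactivating than in the dormant library, the smallest ratio of the list among unigenes with at least 100 reads. The most abundant of the list, chorismate mutase Unigene58403, had 121.6, 77.3 and 81.1 RPKM, with the active at 1.05 times the reactivating library (0.935 to 1.18). Another chorismate mutase, Unigene51364, was 1.31-fold higher (1.08 to 1.58) in the reactivating than in the dormant library. The list for the methyl groups that methyltransferases use held 4 unigenes. They summed to 281, 318 and 607 RPKM in the dormant, reactivating and active libraries. Of 3 measured, 1 was lower (33.3%) and 0 higher in the reactivating than in the dormant library. In active against reactivating and in active against dormant, 1 was higher (33.3%) and 0 lower. Most of the sum was adenosylhomocysteinase (Unigene21608), which clears the by-product of methyltransferases, with 250.0, 288 and 565 RPKM. It was 1.96-fold higher (1.69 to 2.29) in the active than in the reactivating library. There Unigene54897, named for a homocysteine methyltransferase, was at 1.14-fold (0.845 to 1.55).

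The list of electron donors to the P450 steps was also built to take in C4H under other names. Its 15 unigenes, nearly all named NADPH-cytochrome P450 reductase, summed to 1758, 1333 and 1544 RPKM in the dormant, reactivating and active libraries. Of 14 measured, 3 were lower (21.4%) and 0 higher in the reactivating than in the dormant library, and 0 passed 2-fold between the active and the reactivating library. Between the active and the dormant library 6 were lower (42.9%) and 0 higher.

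Laccases, which oxidise monolignols in the wall so that they join into lignin, were mostly higher in the active than in the reactivating library. The 25 laccase unigenes summed to 1287, 414 and 4015 RPKM in the dormant, reactivating and active libraries. Of 20 measured, 16 were higher (80.0%) and 0 lower in the active than in the reactivating library, where 6.76% of all unigenes were higher. In the reactivating against the dormant library 7 of 15 were higher (46.7%) and 8 lower (53.3%), and in the active against the dormant library 17 of 20 were higher (85.0%) and 1 lower. Their median log2 ratio of active to reactivating was 3.89, beside 0.40 for the members. The 35 peroxidase names, a family that also joins monolignols, summed to 1444, 853 and 1046 RPKM. In reactivating against dormant 5 of 19 were higher (26.3%) and 7 lower (36.8%). In active against reactivating 5 of 18 were higher (27.8%) and 1 lower (5.56%). In active against dormant 9 of 20 were higher (45.0%) and 6 lower (30.0%). The peroxidase name with the most reads, Unigene56335, had 1672, 449 and 210 reads and made 23.6% of the dormant sum. Dirigent and lignan enzymes (31 unigenes) summed to 1526, 1023 and 3165 RPKM, with 9 of 22 higher (40.9%) and 2 lower (9.09%) in the active than in the reactivating library. The most abundant of them in the active library was the isoflavone reductase-like protein CJP-6 (Unigene48885), with 65, 70 and 1494 reads. The same list also took in a leucoanthocyanidin reductase (Unigene53673), a name that the flavonoid list carries too, with 109, 117 and 62.7 RPKM. Flavonoid enzymes (25 unigenes), a branch from 4CL's product, summed to 1643, 1550 and 885 RPKM, with 0 of 13 higher and 5 lower (38.5%) in the active than in the reactivating library, where 5.14% of all unigenes were lower.

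Markers of cell types moved between the libraries as well, and their part in the results above was not tested. Names of differentiating xylem summed to 517, 811 and 880 RPKM in the dormant, reactivating and active libraries, with 7, 9 and 9 of 9 unigenes read, and phloem names to 133, 28.9 and 34.2 RPKM over 3 unigenes. In reactivating against dormant, 3 of 5 measured xylem names were higher (60.0%, against 16.9% of all) and 0 lower. The most abundant, Unigene41968, was nearly level at 672, 609 and 614 reads. In the same comparison 2 of 3 phloem names were lower (66.7%, against 13.8% of all) and 0 higher. The one with the most reads, the sucrose transporter Unigene11789, was nearly level at 243, 229 and 272 reads. Cell division names summed to 91.3, 1126 and 875 RPKM, and regulators of cambium and meristems to 2233, 3041 and 3719 RPKM. Photosynthesis names summed to 174, 123 and 92.6 RPKM, and terpenoid synthesis of resin ducts to 165, 126 and 75.6 RPKM. By reads the terpenoid names were at 1065, 1099 and 312. Their most abundant, the alpha pinene synthase Unigene10582, had 861, 1011 and 176 reads and made 74.6% of their RPKM in the reactivating library. No list was at 0 in any library.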

How the data were processed

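Per the labels' protocols, poly(A) RNA was fragmented, reverse transcribed, PCR-amplified and read on an Illumina HiSeq instrument, and no strand-specific step is described. Per the file headers, each deposited table lists the count of uniquely mapped reads, the length, the percent of the length covered (coverage), the RPKM, GO terms and the best protein hit of each unigene with at least 1 read. The authors' RPKM equalled reads over length and library total (relative tolerance 1e-06). The assembler and mapper were not given in the sources used here.

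Unigenes that a library's table does not list were given 0 reads. Ratios are of RPKM, with a 95% Clopper-Pearson interval computed from the share of the reads of both libraries that fell in the later one; those of summed RPKM propagate Poisson error. PCR copies are not independent, so intervals cover counting error only. A library at 0 was set to a floor of 3 reads, about 0.513 RPKM at 1 kilobase. The ratio script was tested on simulated data. Members and lists were chosen with earlier results of these data known. The results of 1 enzyme class, which counts among the 64 unigenes, are not reported here and not plotted. Members were named by rule: at least 200 reads in all, the highest RPKM per step and library, or the largest ratio per step with at least 50 reads. Python 3.11.15, scipy 1.17.1, and edgeR 4.0.16 and DESeq2 1.42.0 (scaling only) were used.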

Additional observations from a re-analysis of the deposited data

How the results depend on the processing

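No paired analysis was possible because each stage has 1 library and the result comes from no test. Scaling by edgeR TMM or DESeq2 size factors moved every log2 ratio by at most 0.07, and under both all counts of unigenes past 2-fold and of peaks and lows stayed within 1.5 times. The summed ratio of PAL in reactivating against dormant became 0.762 and 0.767, outside its narrow counting interval though moved no more than the others of that comparison. The counts also stayed within 1.5 times with 1 read added, a minimum of 100 reads and, chosen after seeing the data, without the phenylcoumaran names. With no minimum of reads, 4 unigenes were higher in reactivating against dormant. At 4-fold, 4 were lower in reactivating against dormant, 0 higher and 0 lower in active against reactivating, and 1 higher and 4 lower in active against dormant. With the interval wholly beyond 2-fold, 9 were lower in reactivating against dormant, 2 lower in active against reactivating and 4 higher in active against dormant. With reads summed by description, the units were the 44 descriptions among the members instead of single unigenes. Of these descriptions, 9 were lower in reactivating against dormant and 7 lower in active against dormant. These counts are over fewer units, so they are not directly comparable with the counts of single unigenes. Among unigenes of at least 500 bases, which are 9, the higher and lower counts were 0 and 0 for reactivating against dormant, 0 and 2 for active against reactivating, and 1 and 2 for active against dormant. At none of these settings was the share over all unigenes computed, so whether a difference from that share holds there was not tested.

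With those 9 alone, 8 summed ratios left the counting interval of the whole step and 4 stayed inside it. Those that left it were 0.649 (C4H) and 1.52 (CAD) in reactivating against dormant. In active against reactivating they were 0.426 (4CL), 1.15 (CAD) and 0.765 (CCR), and in active against dormant 0.294 (4CL), 1.75 (CAD) and 0.972 (CCR). Fewer unigenes enter these sums, only 1 each for C4H and CAD. Without the most abundant unigene of a step, 13 ratios left the interval and 8 stayed inside it. Those that left it in reactivating against dormant were 0.718 (4CL), 1.11 (C3H), 0.565 (C4H) and 0.933 (PAL). In active against reactivating they were 0.607 (4CL), 2.83 (C3H), 1.48 (CCR), 1.98 (HCT) and 0.813 (PAL). In active against dormant they were 0.436 (4CL), 1.09 (C4H), 1.34 (CAD) and 1.41 (HCT). Depth limits part of the members, since 16 of the 64 had under 50 reads in all, among them 3 of the 4 HCT unigenes. The 1 CCoAOMT unigene had 111 reads in all.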

Other observations

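The gene ontology terms place further unigenes in phenylpropanoid metabolism whose best hit names no enzyme. Outside the 64 and the laccases, 55 unigenes carried such a process term, and the hit of 47 of them was unknown, hypothetical, predicted or unnamed. This set was chosen after seeing the data. It summed to 4741, 5673 and 8192 RPKM in the dormant, reactivating and active libraries, with 40.1% of the last sum from Unigene29410. Of 45 measured, 4 were higher (8.89%, against 16.9% of all) and 3 lower (6.67%, against 13.8% of all) in the reactivating than in the dormant library. In the active against the reactivating library 6 were higher (13.3%, against 6.76% of all) and 4 lower (8.89%, against 5.14% of all). In the active against the dormant library 15 of 47 were higher (31.9%, against 18.1% of all) and 7 lower (14.9%, against 13.8% of all).

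Reads covered a median of 95.9%, 93.9% and 94.8% of the length of the 64 unigenes in the dormant, reactivating and active libraries, beside 83.1%, 84.5% and 84.1% over all unigenes. The best hit was a conifer sequence for 38 of the 64, with all 4 HCT, both C3H and all 3 CAD unigenes among them, and 2 of 6 CCR.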
